A study of Rattus norvegicus with 4 samples.

Results

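The chondroitin sulfate proteoglycans that oligodendrocyte precursor cells (OPCs) are known to carry were examined in OLN93 cells with and without Sox10. The set comprised 9 of the 17327 gene symbols in the deposited count tables, matched by exact symbol and not by any measured value. These were the lecticans Vcan, Ncan, Bcan and Acan, the transmembrane proteoglycans Cspg4 and Cspg5, the receptor phosphatase Ptprz1, and its ligands Ptn and Mdk. Ptn and Mdk are secreted heparin-binding growth factors and not proteoglycans.

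OLN93 is a rat cell line of the oligodendroglial lineage that immortalized spontaneously. The control group consisted of 2 Sox10-positive libraries, which the labels call biological replicates and the paper's methods call clones. The Sox10-deficient group consisted of clone A and clone B, in which Sox10 had been inactivated by CRISPR/Cas9 with different guide RNAs, so that each library stands for 1 clone. All cells were grown in DMEM with fetal calf serum and received no other agent according to the labels. Where separate cultures are not documented, the p-values measure the spread between these libraries, which may be technical.

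A chondroitin sulfate proteoglycan is a core protein with attached sulfated sugar chains. Lecticans bind hyaluronan and tenascins and build the pericellular matrix of the brain. NG2, the product of Cspg4, is the classical surface marker of OPCs and also occurs on pericytes. Ptprz1 is a tyrosine phosphatase of glial cells whose extracellular part carries chondroitin sulfate. Binding of Ptn is known to inactivate it. Sox10 is a transcription factor present throughout the oligodendroglial lineage.

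Of the 9 genes, Vcan, Cspg4, Ptprz1 and Ptn were clearly detected, with between 16 and 58 counts per library. Ncan and Mdk had 0 counts in all libraries, and Bcan, Acan and Cspg5 had at most 2 counts in any library. Vcan levels were lower and Cspg4 levels were higher in both Sox10-deficient clones than in both controls. Neither difference reached 2-fold or passed the test after adjustment for multiple testing. For Ptprz1 and Ptn the groups overlapped. In bulk RNA, fewer expressing cells and less RNA per cell cannot be told apart.

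Totals of the deposited counts ranged from 60951 to 104017. This is far below the sum of the authors' own table of means, 19320879, and the sources used here do not give the reason, so that the deposited totals cannot be read as the sequencing depth. Levels are given as counts per M counts (CPM), scaled with the TMM factors of edgeR. A count of 0 allows a level of up to 3 counts, which corresponded to between 29.1 and 48.0 CPM. Such limits and all counting intervals cover counting error only. Sox10 itself had 28 and 64 counts in control cells, 0 in clone A and 14 in clone B. The log2 fold change was -2.74 (standard error, SE, 0.62, edgeR quasi-likelihood adjusted p = 0.0172). The adjusted p was 0.999 with DESeq2 and 0.0959 without clone A. Clone B was thus a library labelled Sox10-deficient in which Sox10 reads remained.

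The labelled cell type was compared with marker lists. Of 11 OPC markers in the tables, 4 were tested and 3 of these had a log2 fold change below 0. Pdgfra, the receptor for platelet-derived growth factor, was above 0, at 0.22. It had 23 and 38 counts in control cells, 31 in clone A and 44 in clone B. Nkx2-2 had 20 and 52 counts in control cells, 18 in clone A and 25 in clone B, with a log2 fold change of -0.77 (SE 0.38). The lineage factor Olig2 had 7 counts in control 1 and 0 in the other libraries, and Olig1 had 12 and 1 counts in control cells and 0 in both clones. The deposited averages of 1.75 counts for Olig2 and 3.25 for Olig1 stood against authors' means of 0 and 153. The deposited counts of Olig2 thus have no counterpart in the authors' means. The summed level of the OPC list was 1854 and 1706 CPM in control cells against 801 and 1098 CPM in clones A and B. This sum includes the inactivated gene Sox10 itself, with 448 and 620 CPM in control cells, 0 in clone A and 159 CPM in clone B. The summed level of the Schwann cell and neural crest list was 1391 and 1260 CPM in control cells against 290 and 113 CPM. Its 3 tested genes were lower, Pmp22 only by the unadjusted p. Over all tested genes, 6.97% were lower by 2-fold or more with the unadjusted p and 2.5% with the adjusted p. Ngfr and Erbb3, with 99 and 28 summed counts in control cells, had 0 in the clones. They could pass the count filter only through the controls, so that their lower calls are not independent of it. Myelinating oligodendrocyte markers summed to 1343 and 969 CPM against 685 and 419 CPM, and all 3 tested genes had a log2 fold change below 0, with -1.36 for Cnp, -0.75 for Myrf and -0.40 for Mog. Of these, Cnp passed the test at 2-fold with the adjusted p. Astrocyte markers summed to 512 and 397 CPM in control cells against 383 and 283 CPM in clones A and B. Of these, S100b was lower and Sox9 was higher by the adjusted p. Pericyte and mesenchymal markers summed to 368 and 417 CPM in control cells against 360 and 136 CPM, with 8 of 12 genes at 0 in all libraries. Neuronal markers summed to at most 22.6 CPM. Microglial markers summed to 63.9 and 136 CPM in control cells against 58.1 and 45.3 CPM. Every list except the neuronal one thus summed to less in both clones than in both controls. The part of these differences in the values of the proteoglycan genes was not tested.

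Vcan encodes versican, a large lectican that is secreted into the matrix. It had 45 and 55 counts in control cells, 35 in clone A and 27 in clone B. In normalized CPM these were 719 and 533 in control cells and 407 and 306 in the clones. Both clones thus lay below both controls. The mean was 626 ± 132 CPM in control cells and 356 ± 71.3 CPM in the clones (SD, n = 2 each). The fold change was 0.57 with a 95% interval from 0.36 to 0.92, corresponding to a log2 fold change of -0.80 (SE 0.32, edgeR quasi-likelihood adjusted p = 0.225 by the Benjamini-Hochberg method, 0.0240 before adjustment). Without control 2 or without clone A, the log2 fold change of Vcan was -1.02 and -1.01, and without control 1 or clone B it was -0.58 and -0.61.

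The other lecticans are matrix proteins that bind hyaluronan like versican. Ncan, which encodes neurocan, had 0 counts in all 4 libraries. Bcan, which encodes brevican, had a single count, in clone A. Acan, which encodes aggrecan, had 2 counts in clone A and 0 counts elsewhere. With no count in control cells, no fold was given for Bcan and Acan. No difference could be read from these counts for any of these lecticans.

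Cspg4 encodes NG2, which spans the membrane and binds growth factors and integrins. It had 16 and 31 counts in control cells, 58 in clone A and 36 in clone B. The levels were 256 and 301 CPM in control cells, 674 CPM in clone A and 408 CPM in clone B. Both clones were above both controls, although the counting interval of clone B (286 to 564 CPM) overlapped with those of control 1 (146 to 415 CPM) and control 2 (204 to 427 CPM). The mean was 278 ± 31.6 CPM in control cells and 541 ± 188 CPM in the clones (SD, n = 2 each). The fold change was 1.91 with a 95% interval from 1.14 to 3.20, corresponding to a log2 fold change of 0.93 (SE 0.35, edgeR quasi-likelihood adjusted p = 0.196, 0.0170 before adjustment). Clone A contributed most to this value, as leaving it out gave a log2 fold change of 0.54 and leaving out clone B gave 1.25.

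Genes that overlap the set were looked up in the rat assembly GRCr8, which differs from the build used for counting. Cspg4 overlaps there the gene Cimap1c, listed in the count tables under its older symbol Odf3l1, and a tRNA gene. Odf3l1 had 0 counts in all libraries. Mdk overlaps Chrm4 in the same assembly. Chrm4, a muscarinic receptor gene, had 6 counts in clone B and 0 in the others. The remaining 7 genes of the set overlapped no other annotated gene there.

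Cspg5 encodes neuroglycan C, a transmembrane proteoglycan of the nervous system. It had 2 counts in control 2 and 0 in the other libraries. The ratio of the summed counts of clones to controls had an exact 95% interval from 0 to 5.06, so that neither a decrease nor an increase could be read from them.

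Ptprz1 had 30 and 21 counts in control cells, 16 in clone A and 25 in clone B. The levels were 480 and 204 CPM in control cells and 186 and 283 CPM in the clones. Clone B lay between the controls, which differed from each other by more than the group means did. The mean was 342 ± 195 CPM in control cells and 234 ± 68.8 CPM in the clones (SD, n = 2 each). The fold change was 0.72 with a 95% interval from 0.37 to 1.38 (log2 fold change -0.48, SE 0.45, edgeR quasi-likelihood adjusted p = 0.730). Control 1 decided the direction, since the log2 fold change was 0.20 without it and -1.03 without control 2.

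Ptn encodes pleiotrophin and had the most counts of the set when summed over all libraries. It had 47 and 53 counts in control cells, 52 in clone A and 36 in clone B. This corresponded to 751 and 514 CPM in control cells and to 604 and 408 CPM in the clones, so that clone A lay between the controls. The mean was 633 ± 168 CPM in control cells and 506 ± 139 CPM in the clones (SD, n = 2 each). The fold change was 0.81 with a 95% interval from 0.51 to 1.29 (log2 fold change -0.30, SE 0.32, edgeR quasi-likelihood adjusted p = 0.768). Mdk, which encodes the related midkine, had 0 counts in all 4 libraries. Of this pair of ligands, Ptn was therefore the member read in OLN93 cells, whether Sox10 was present or not.

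**Figure D1:**
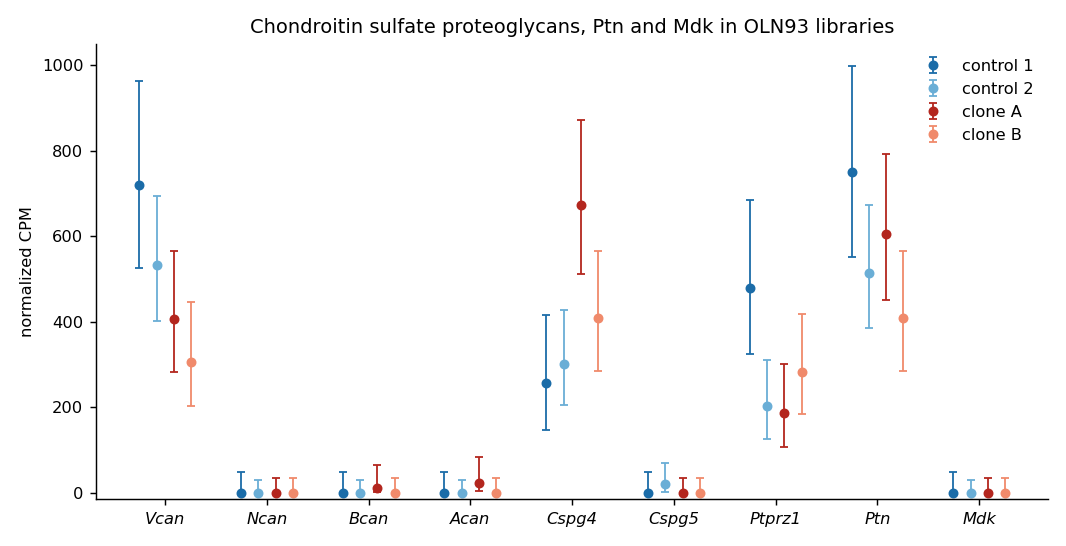
Normalized CPM (vertical axis) of the 9 genes (horizontal axis) in control 1, control 2, clone A and clone B, shown as points. Bars are exact 95% Poisson intervals of the count or, at 0 counts, reach up to the level of 3 counts. Vcan lies lower and Cspg4 higher in both clones than in both controls, Ptprz1 and Ptn overlap, and the other 5 genes lie at or near 0.

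A gene was called when it differed by 2-fold or more and its p was at most 0.05. Of the 4 genes of the set that had enough counts to be tested, 0 were called lower and 0 higher by edgeR, with the unadjusted and with the adjusted p. Among all 2438 tested genes, 6.97% were called lower and 4.63% higher with the unadjusted p, and 2.5% lower and 1.11% higher with the adjusted p. Without the fold criterion, 2 of the 4, Vcan and Cspg4, had an unadjusted p of 0.05 or less, a level reached by 14.7% of all tested genes. DESeq2 gave 0 such genes, with unadjusted p = 0.0785 for Cspg4. The groups did not overlap for 2 of the 4 genes, compared with 43% of all tested genes. The 4 genes had a median log2 fold change of -0.39, beside -0.0059 over all tested genes. The intervals of Vcan and Ptprz1 include a 2-fold decrease, that of Cspg4 includes a 2-fold increase, and that of Ptn, from -0.97 to 0.37 on the log2 scale, ends just short of a 2-fold decrease.

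**Figure D2:**
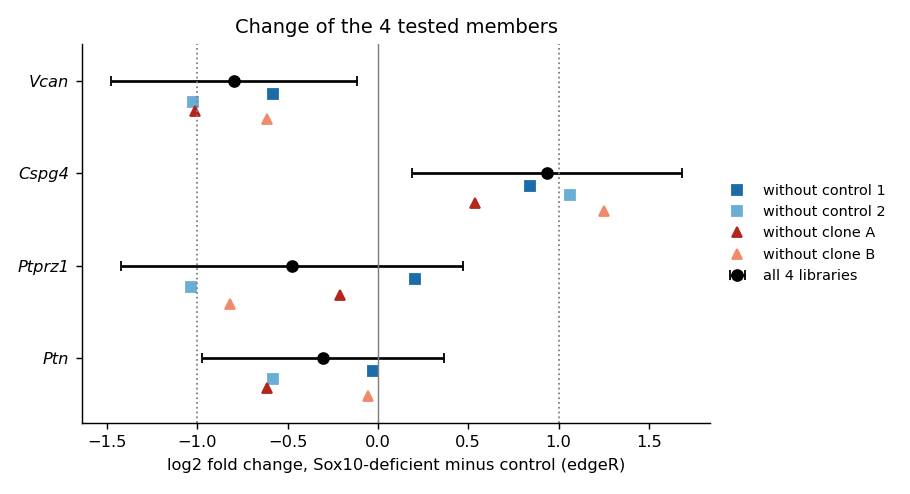
Log2 fold change (horizontal axis, Sox10-deficient minus control) of the 4 tested genes. Black points with bars give the value from all 4 libraries with its 95% interval, squares and triangles give the value without 1 library, and dotted lines mark a 2-fold change. Vcan stays below and Cspg4 above 0 without any 1 of the libraries, whereas Ptprz1 crosses 0 without control 1.

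The genes were also compared with each other within each library, which needs no scaling between libraries. These ratios are of counts that were not divided by transcript length, so that only their difference between groups can be read. The ratio of Vcan to Cspg4 counts was 2.81 and 1.77 in control cells, 0.603 in clone A and 0.750 in clone B. Vcan thus had more counts than Cspg4 in both controls and fewer in both clones. On the log2 scale the ratio was lower by 1.73 in the clones, with an SD of 0.47 in control cells and 0.22 in the clones. The two-sided exact permutation test gave p = 0.33, which is the smallest p that 2 against 2 libraries allow (adjusted p = 0.667 over 6 pairs of genes).

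The ratio of Cspg4 to Ptn counts was 0.340 and 0.585 in control cells and 1.12 and 1.00 in clones A and B, again without overlap (exact permutation test, p = 0.33). Vcan to Ptn gave 0.957 and 1.04 in control cells but 0.673 and 0.750 in clones A and B, also without overlap. The ratios of Ptprz1 to Vcan, Cspg4 or Ptn overlapped between the groups. These ratios share their counts and are not independent of each other.

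**Figure D3:**
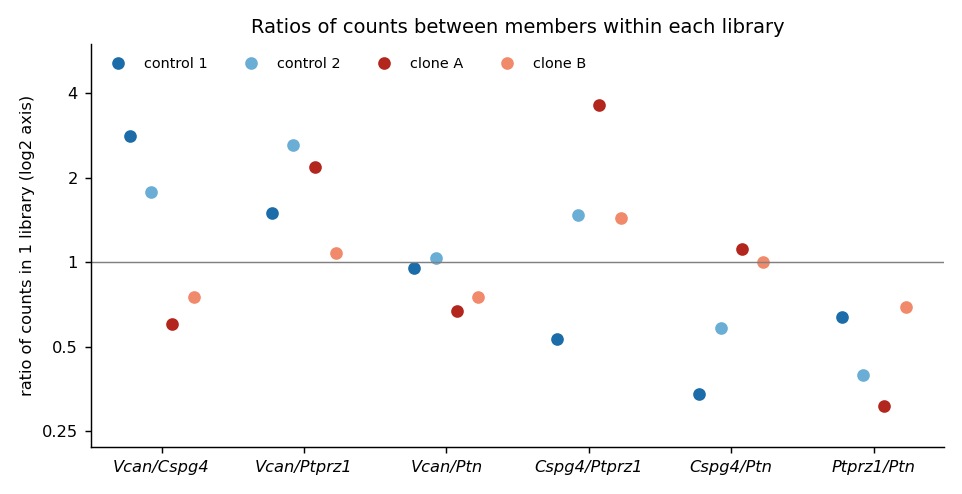
Ratio of counts of the gene pairs named on the horizontal axis within each library, on a log2 vertical axis. The ratio of Vcan to Cspg4 is above 1 in both controls and below 1 in both clones, and the pairs with Ptprz1 overlap between the groups.

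Expressed as a share of all counts of the set, Cspg4 made up 11.6% of 138 counts in control 1 (95% Clopper-Pearson interval 6.77 to 18.1) and 19.1% of 162 counts in control 2 (13.4 to 26.0). It made up 35.4% of 164 counts in clone A (28.1 to 43.2) and 29.0% of 124 counts in clone B (21.2 to 37.9). The intervals of both clones lay above that of control 1, and that of clone B overlapped with control 2. The share of Ptn stayed between 29.0% and 34.1% in the 4 libraries. In sum, the 9 genes amounted to 2206 and 1570 CPM in control cells and to 1905 and 1404 CPM in the clones, values that overlapped between the groups.

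The authors' own table gives mean counts over all libraries on a much larger scale, for a reason that the sources used here do not state. It lists a mean of 13982 for Ptn, 10169 for Cspg4, 9744 for Vcan and 5160 for Ptprz1. The deposited counts of these genes averaged 47, 35.3, 40.5 and 23 per library. They amounted to between 0.336% and 0.446% of the authors' mean, where the median over 5353 genes with an authors' mean of at least 500 was 0.384%. The central 90% of those genes lay between 0.129% and 1.19%, a range that includes all 4 genes. The scale was not uniform, since Prg4, for example, averaged 21 deposited counts against an authors' mean of 1. Likewise, Has3 averaged 17.5 against 7 and Lgals3 averaged 8.75 against 3. Prg4, Has3 and Lgals3 are among the tested genes of the lists below, and none of them was called. The authors' mean was 70 for Cspg5, 15 for Mdk and 0 for Acan, and Ncan is listed at 0 under 2 identifiers. If the median proportion applied to them, the authors' mean of Cspg5 would correspond to 0.269 counts per library and that of Mdk to 0.0576 counts. Bcan was not matched by symbol in that table.

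The promoters of Vcan, Cspg4 and Ptn are shown because these genes had the clearest separation between groups or, for Ptn, the most counts. The sequences are the 250 bases before the annotated start from RefSeq on the assembly GRCr8, 5′ to 3′ on the strand of the gene. Capitals mark the letters of a CCAAT box (CCAAT) or a GC box (GGGCGG), here found on the opposite strand and hence written as their reverse complement. The table holds 2 starts for Vcan, of which the upstream one is shown.
Vcan, chr2:22595956-22596205, minus strand: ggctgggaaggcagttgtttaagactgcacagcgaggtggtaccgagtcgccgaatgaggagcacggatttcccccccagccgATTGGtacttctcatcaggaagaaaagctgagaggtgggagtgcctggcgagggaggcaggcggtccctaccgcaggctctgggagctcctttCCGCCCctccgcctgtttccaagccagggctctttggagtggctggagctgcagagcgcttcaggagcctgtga
Cspg4, chr8:66160692-66160941, plus strand: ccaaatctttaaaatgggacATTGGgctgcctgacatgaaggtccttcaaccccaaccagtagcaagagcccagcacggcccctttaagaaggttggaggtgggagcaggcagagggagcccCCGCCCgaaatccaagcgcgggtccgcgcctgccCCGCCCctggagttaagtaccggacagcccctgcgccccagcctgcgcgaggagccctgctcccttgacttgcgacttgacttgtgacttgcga
Ptn, chr4:66342333-66342582, minus strand: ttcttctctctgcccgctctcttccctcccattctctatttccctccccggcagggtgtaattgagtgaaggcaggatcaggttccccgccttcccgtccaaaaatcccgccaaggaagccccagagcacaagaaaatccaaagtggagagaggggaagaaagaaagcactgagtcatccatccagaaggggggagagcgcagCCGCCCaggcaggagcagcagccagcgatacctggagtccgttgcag

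In the Cspg4 promoter, a CCAAT box began 230 bases before the start and GC boxes began 128 and 94 bases before it. In the Vcan promoter, a CCAAT box began 167 bases and a GC box 74 bases before the start, and the Ptn promoter held a GC box 47 bases before the start. Of all 33469 promoters in the table, 34% held CCAAT and 30.5% held GGGCGG on either strand. As core letters of Sox binding sites, ACAAAG and its variant ACAATG were searched on either strand, as were TCAAAG and its variant TCAATG. At least 1 of them was found in 40% of all promoters. They were not among the letters of the 250 bases before the start of Vcan, Cspg4, Ptn, Ncan, Bcan or Acan. Sites elsewhere in these genes were not searched. In the paper's reporter assays, Sox10 activated an enhancer in an intron of Cspg4, which lies outside these bases. Those assays used plasmids in transfected mouse N2a neuroblastoma cells and did not measure Cspg4 RNA in OLN93 cells. Promoters of Ptprz1, Cspg5 and Mdk were not analysed here.

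The genes with the most similar profile were sought among the 2437 other tested genes, as the smallest root mean square difference of log2 CPM deviations from the gene's mean over the 4 libraries. For Vcan these were Fads2 (0.030), a fatty acid desaturase gene, and Myrf (0.034), which encodes a transcription factor of oligodendrocyte differentiation. Myrf had 10 and 12 counts in control cells and 8 and 6 in clones A and B. For Cspg4 they were Pgam1 (0.072), a gene of glycolysis, and Txnrd1 (0.086), which encodes a thioredoxin reductase. For Ptprz1 they were Rnps1 (0.064) and Sec31a (0.066), and for Ptn they were Axl (0.063), a receptor tyrosine kinase gene, and Dot1l (0.069), a histone methyltransferase gene. With 4 libraries such profiles are common, since 80 genes lay within 0.2 of Vcan, 106 of Ptn, 31 of Ptprz1 and 30 of Cspg4.

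Genes that make, bind, cleave or degrade these proteoglycans were examined as 10 lists with 156 genes in all. Of these, 143 were in the count tables and 45 could be tested. With the unadjusted p, 6 of the 45 genes (13.3%) were lower and 4 (8.89%) were higher, beside the 6.97% and 4.63% of all tested genes. With the adjusted p, Adamts9, Afap1l2, Nrp1 and Hexa were lower (8.89%) and Fbn1 and Tsku were higher (4.44%), beside 2.5% and 1.11% of all tested genes. Adamts9, Afap1l2, Nrp1 and Hexa passed the count filter only through the control libraries, where they were higher. Gpc4 and Sdc2, called with the unadjusted p alone, met the filter's minimum in both libraries of their higher group but not of the other. These calls are therefore not independent of the filter. The same holds for the shares called lower, 13.3% with the unadjusted and 8.89% with the adjusted p. It also holds for the share of 8.89% called higher with the unadjusted p. The 45 genes had a median log2 fold change of -0.023. Each list below held between 1 and 9 tested genes, so that single calls cannot be read as a result about a list. These calls are sensitive to the model, as DESeq2 called 2 of the genes lower and 0 higher by the adjusted p.

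Genes for the assembly of the sugar chains showed few tested members and mostly small differences. Of 13 genes for the linker and chain polymerization, Ugdh and Fam20b were tested. Neither was called. Ugdh, which provides the UDP-glucuronate for the chains, had 10 and 16 counts in control cells and 4 and 17 in the clones. Fam20b, a kinase that acts on the linker, had 3 and 14 against 16 and 10 counts. Of 13 genes for sulfation and epimerization, 1 of 3 tested genes was lower by the unadjusted p. This was Papss1, which synthesizes PAPS, the sulfate donor that sulfotransferases use. It had 31 and 39 counts in control cells and 15 and 13 in the clones, with a log2 fold change of -1.42 (SE 0.39, edgeR quasi-likelihood adjusted p = 0.0539). Dse, the epimerase that turns chondroitin into dermatan sulfate, had 7 and 9 against 8 and 11 counts.

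Among hyaluronan synthases, link proteins and matrix partners of lecticans, 1 of 6 tested genes was higher and 0 were lower. With the unadjusted p, 4.63% of all tested genes were higher and 6.97% lower. Fbn1, which encodes fibrillin-1, a microfibril protein that binds versican, had 15 and 35 counts in control cells and 69 and 74 in clones A and B. It rose from 290 ± 70.4 to 820 ± 25.8 CPM (SD, n = 2 each). This was a log2 fold change of 1.46 (SE 0.31, edgeR quasi-likelihood adjusted p = 0.0119). The adjusted p of Fbn1 was 0.0764 without clone A, 0.104 without clone B and 0.0662 with DESeq2. Tnc, which encodes the lectican ligand tenascin-C, had the most counts of the list, with 247 and 312 in control cells and 273 and 338 in the clones, and a log2 fold change of 0.0060 (SE 0.26). Cd44, the hyaluronan receptor gene, had 43 and 96 against 40 and 48 counts and an adjusted p of 0.243 from edgeR's quasi-likelihood test.

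Among 3 tested genes for proteases and inhibitors that act on lecticans or NG2, 1 was lower. The share over all tested genes was 6.97% with the unadjusted p. Adamts9, a protease that cleaves versican and aggrecan, had 31 and 41 counts in control cells and 7 and 10 in the clones. Its level fell, from 446 ± 69.4 to a mean of 97.3 ± 22.6 CPM (SD, n = 2 each). This was a log2 fold change of -2.17 (SE 0.43, edgeR quasi-likelihood adjusted p = 0.00659). The study had picked Adamts9 as a candidate gene from these same libraries, so that it is not independent evidence for the list. Its adjusted p was 0.0890 without clone A. Timp2, an inhibitor of metalloproteinases, had 15 and 25 against 36 and 24 counts and was not called.

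For the genes of other receptors of Ptn and Mdk, 1 of 7 tested genes was lower and 2 were higher by the unadjusted p. Over all tested genes these shares were 6.97% and 4.63%. Nrp1, which encodes the coreceptor neuropilin-1, had 7 and 17 counts in control cells and 0 in both clones. The ratio of its summed counts of clones to controls had an exact 95% interval from 0 to 0.158 (edgeR quasi-likelihood adjusted p = 0.0272). The adjusted p of Nrp1 lay between 0.0640 and 0.165 when any 1 library was left out. The heparan sulfate proteoglycan genes Sdc1 and Sdc2, coding for syndecans, had log2 fold changes of 1.40 and 1.23, with edgeR quasi-likelihood adjusted p = 0.0774 and 0.215. Sdc1 had 9 and 15 counts against 40 and 27, and Sdc2 had 11 and 8 counts against 26 and 23. The endocytic receptor gene Lrp1 had 46 and 90 against 112 and 76 counts, and the laminin receptor gene Itga6 had 59 and 108 against 51 and 59. Neither was called.

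Of the 8 tested genes for surface partners and substrates of Ptprz1, 1 was lower and 6 had a log2 fold change below 0, as had 1232 of all 2438 tested genes. Afap1l2, an adaptor of PI3 kinase signalling, had 22 and 24 counts in control cells, 0 in clone A and 3 in clone B. The log2 fold change was -3.95 (SE 0.79, edgeR quasi-likelihood adjusted p = 0.00688). The size depended on single clones, at -3.02 when clone A was left out and -7.60 when clone B was left out, where clone A alone remained with 0 counts. The adhesion molecule gene Ncam1 had 68 and 109 counts in control cells and 74 and 62 in the clones. Ctnnb1, which encodes beta-catenin, had 38 and 60 against 48 and 28. Both were below 0 on the log2 scale and neither was called. Among the neuronal-type receptors of chondroitin sulfate proteoglycans, Ptprs alone could be tested. It had 18 and 30 against 38 and 36 counts and a log2 fold change of 0.55 (adjusted p = 0.521 from the same quasi-likelihood test of edgeR).

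Other proteoglycan core proteins gave 1 lower and 1 higher gene out of 9 tested by the unadjusted p. Tsku, which encodes the small leucine-rich protein tsukushi, had 11 and 17 counts in control cells and 46 and 36 in clones A and B. It rose from 170 ± 7.81 to 471 ± 89.5 CPM (SD, n = 2 each). This was a log2 fold change of 1.46 (SE 0.38, edgeR quasi-likelihood adjusted p = 0.0413). Without control 2, clone A or clone B, the adjusted p of Tsku was 0.106, 0.301 and 0.104, and it was 0.286 with DESeq2. Gpc4, a heparan sulfate proteoglycan gene of the glypican family, had 26 and 35 against 14 and 10 counts and a log2 fold change of -1.43 (edgeR quasi-likelihood adjusted p = 0.0687). Bgn, the gene for the chondroitin sulfate proteoglycan biglycan, had 94 and 122 against 195 and 143 counts. Nrp2, which encodes neuropilin-2, had 43 and 45 against 80 and 53. Neither Bgn nor Nrp2 was called.

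In the list of lysosomal enzymes for chondroitin sulfate breakdown, 1 of 2 tested genes was lower, beside 6.97% of all tested genes with the unadjusted p. Hexa, the alpha subunit of beta-hexosaminidase, had 12 and 31 counts in control cells and 6 and 3 in the clones, with a log2 fold change of -2.26 (SE 0.61, edgeR quasi-likelihood adjusted p = 0.0468). Its adjusted p was 0.366 without control 2, 0.0748 without clone A, 0.252 without clone B and 0.260 with DESeq2. Glb1, the lysosomal beta-galactosidase gene, had 11 and 5 against 8 and 12 counts. Of the 4 tested genes for partners of NG2, 0 were called by edgeR with either p, and 1 had an unadjusted p of 0.05 or less. Itgb1, the integrin beta-1 gene, had 33 and 68 against 96 and 82 counts, with a log2 fold change of 0.76 and an unadjusted p = 0.0127 (edgeR quasi-likelihood adjusted p = 0.158). Pdgfra, which NG2 assists as a coreceptor, had 23 and 38 against 31 and 44 counts.

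**Figure D4:**
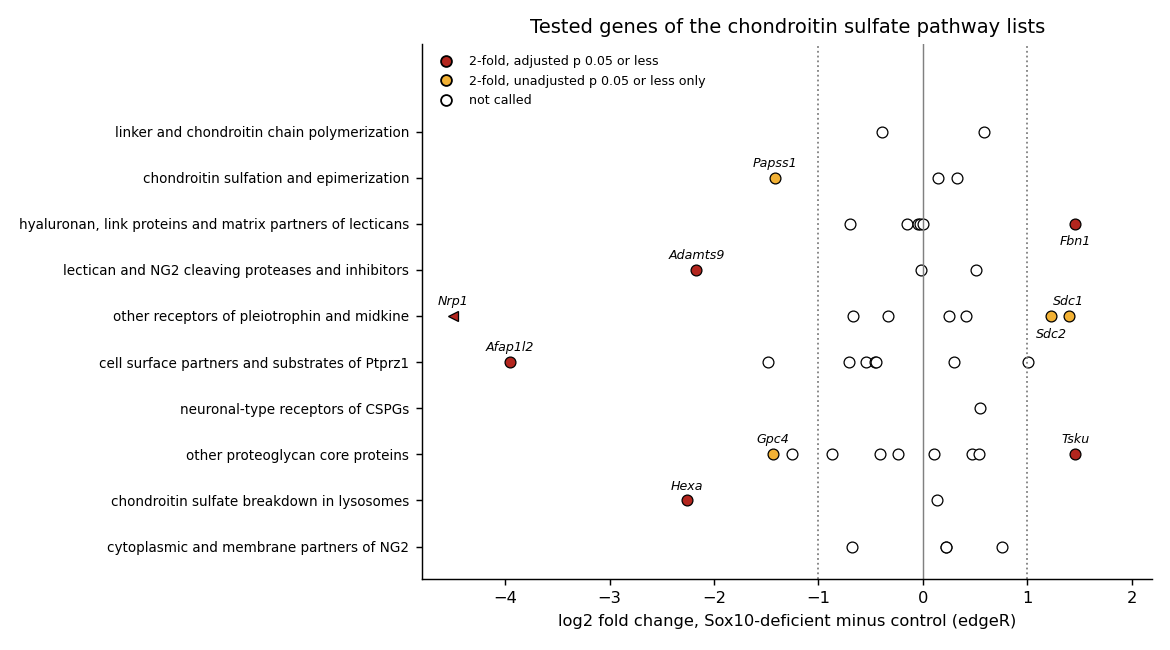
Log2 fold change (horizontal axis, Sox10-deficient minus control) of the 45 tested genes of the 10 lists (rows). Filled circles are called genes, red with the adjusted and orange with the unadjusted p alone, and dotted lines mark a 2-fold change. The triangle at the left edge is Nrp1, which had 0 counts in both clones. Adamts9, Afap1l2, Nrp1 and Hexa lie to the left and Fbn1 and Tsku to the right among the genes called with the adjusted p.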

How the data were processed

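RNA of 2 control and 2 Sox10-deficient OLN93 libraries had been sequenced as stranded mRNA libraries. The authors mapped reads to rn5 with STAR 2.5.1 and deposited HTSeq counts per gene symbol, which were not normalized and carry no summary rows. The strand option was not given in the sources used here. They also deposited a DESeq2 table whose mean count, rounded by the authors and treated here as a score, was printed as their mean. Its columns of fold changes, standard errors, Wald statistics and p-values were not used.

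The quasi-likelihood test of edgeR 4.0.16 under R 4.3.3 was applied with condition as the sole term, after filterByExpr and TMM scaling. P-values were adjusted by Benjamini-Hochberg over 2438 genes. The test was checked on simulated counts. As alternatives, DESeq2 1.42.0, its size factors, library totals alone, omission of the filter, a minimum of 10 counts per library, a replicate term and omission of single libraries were run. Intervals of shares were computed with scipy 1.17.1.

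Genes named are the set itself, Sox10, from each list the called genes and the 2 with the highest mean CPM, and the 2 most similar genes of each tested gene. The rule provided promoters for Ptn and Mdk alone. Those of Vcan and Cspg4, the marker genes, the overlapping genes and Chst15 were named after their values were seen. So were Prg4, Has3 and Lgals3, as examples of the uneven scale. The set and all lists were chosen with earlier results of these data known. Transcript lengths were not used here, so that levels were not compared between genes. Protein sequences were not used here.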

Additional observations from a re-analysis of the deposited data

How the results depend on the processing

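Vcan, Cspg4 and Ptn kept the direction of their difference under all 10 alternatives, and none of the 4 tested genes of the set passed the adjusted threshold in any of them. With all 4 libraries, the log2 fold change lay between -0.82 and -0.77 for Vcan and between 0.88 and 0.96 for Cspg4. When 1 library was left out, it lay between -1.02 and -0.58 for Vcan, 0.54 and 1.25 for Cspg4, -1.03 and 0.20 for Ptprz1, and -0.61 and -0.025 for Ptn. Ptprz1 turned from lower to higher, to 0.20, without control 1. By the unadjusted p and 2-fold, leaving out a library called 0 to 2 genes of the set lower and 0 to 1 higher: Vcan and Ptprz1 lower and Cspg4 higher without control 2, Vcan lower without clone A, and Cspg4 higher without clone B. Sox10 missed the adjusted threshold with DESeq2 (-2.74), and leaving out a library gave -8.51 to -1.76, the former fitted with clone A at 0 counts.

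Genes of the pathway lists called lower by the unadjusted p changed from 6 to 12 without a filter and to 2 with a minimum of 10 counts per library, and those called higher from 4 to 2 with that minimum and to between 2 and 4 without 1 library. By the adjusted p, 4 lower and 2 higher genes became 2 and 0 with DESeq2, 0 and 1 with that minimum, and 1 to 3 and 0 to 2 without 1 library. Over all tested genes, 170 lower and 113 higher genes by the unadjusted p became 103 and 68 with DESeq2, 329 and 295 without a filter, and 42 and 31 with that minimum. By the adjusted p, 61 and 27 became 30 and 9 with DESeq2, 8 and 9 with that minimum, and 30 to 68 and 9 to 42 without 1 library, and 44 were higher without a filter. A minimum in every library removes genes that fell below it in any library, and fewer or more genes are tested under the filters. Otherwise the cause was not tested.

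Scalings moved the median of all genes by -0.022 with library totals and less otherwise. The sample descriptions number the libraries 1 and 2 in each group, clone A being 1 and clone B 2, and nothing in the labels says that the number marks a shared culture or day. Control 1 minus control 2 correlated with clone A minus clone B at 0.12 over 2438 genes. With the replicate block, 28 genes were lower and 11 higher by the adjusted p, as were 0 and 1 of the pathway lists, and Sox10 was at -2.82 and missed the threshold. The block changed no call of the set. At counts of 16 to 58 per library, differences below 2-fold are at the limit of what these libraries can show. The comparison of serine-glycine pairs in the proteins was not run. Where a group was left with 1 library, that library was assumed to vary like the others.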

Other observations

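Of the 143 pathway genes in the count tables, 98 had too few counts to be tested and 38 of these had 0 counts in all libraries. Among the untested genes, Chst15 was picked after its values were seen, and Rtn4rl2 is among the highest genes of its list. Chst15, which encodes the sulfotransferase that makes the highly sulfated chondroitin sulfate E, had 0 counts in control cells, but 5 and 10 in clones A and B. The ratio of its summed counts of clones to controls had an exact 95% lower bound of 3.41. Without a filter, its edgeR quasi-likelihood adjusted p was 0.0575 over 10024 genes. Rtn4rl2, which encodes a Nogo receptor family protein, had 9 and 3 counts in control cells and no count in the clones. That ratio had an exact 95% interval from 0 to 0.342 for Rtn4rl2, with an edgeR quasi-likelihood adjusted p = 0.104 in the unfiltered fit.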
